A study of Homo sapiens with 6 samples.

Results

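The integrin genes described here are the 10 human chains ITGA2, ITGA3, ITGA5, ITGA6, ITGAV, ITGB1, ITGB3, ITGB4, ITGB5 and ITGB6, taken by gene symbol from the 56303 genes of the deposited count table and read in every library. Their transcripts were measured by poly(A) RNA sequencing in SW480, a line established from a human colorectal adenocarcinoma. The groups were 3 libraries of cells with a control short hairpin RNA (shCtrl) and 3 libraries of cells with a hairpin against MORC2 (shMORC2), a nuclear ATPase of the microrchidia family. In both groups the line carried a lentiviral hairpin and had no other genetic change in its labels, which give the genotype as WT. Per the study's methods, hairpin lines were selected with puromycin into stable clones, and the labels name neither a second MORC2 hairpin nor the clone behind a library. The methods state that each group had 3 replicate experiments. No source says whether these were separate infections or clones, and p-values measure the spread between these libraries.

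Integrins are receptors made of an alpha and a beta chain that span the cell membrane, hold the cell to laminin, collagen, fibronectin and other matrix proteins, and pass signals in both directions. ITGB1 pairs with many alpha chains, ITGAV with several beta chains, and ITGB4 only with ITGA6, in the hemidesmosomes that tie epithelial cells to the basement membrane through keratins. In colon epithelium the laminin receptors are prominent, and ITGB6, a partner of ITGAV that activates latent TGF-beta, is known for low levels at rest and higher levels in wounds and carcinomas.

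The libraries held 42092664 to 43434425 counts each. MORC2 stood at 46.1, 46.4 and 48.8 CPM (counts scaled to a common library size, after TMM) in shCtrl and at 35.0, 29.3 and 27.2 CPM in shMORC2, a log2 fold change of -0.63 (edgeR adjusted p = 0.000216, SE 0.10). All shMORC2 libraries were below all shCtrl libraries. The antisense gene MORC2-AS1 shares exonic positions with MORC2. Of 10 colon epithelial markers, 9 were above the floor of 3 counts in every library, and CDX1 was not. Their summed level ran from 20150 to 26195 CPM in shCtrl and from 19187 to 26080 CPM in shMORC2.

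Knockdown of MORC2 left most integrin genes near their control level in the comparison of the groups. ITGB6 was the only member past the test, at 1.53 times its control level. ITGB4, the partner of ITGA6 in hemidesmosomes, was 0.754 times its control level, and whether it passed the test depended on the fit. The laminin receptor chain ITGA6 and the common beta chain ITGB1 had log2 fold changes of 0.03 and 0.05. Of the 10 members, 9 had enough counts to be tested, and ITGB3 did not. Of these 9, 1 was called higher (edgeR quasi-likelihood, adjusted p under 0.05), where 19.9% of the 21005 genes tested were called higher, and 0 were called lower, where 19.6% of all genes were. At an unadjusted p under 0.05, ITGA2 and ITGB6 were higher, where 24.0% of all genes were, and ITGB4 was lower, where 24.1% were. DESeq2 also called 1 member higher and 0 lower, where it called 19.3% of all genes higher and 18.8% lower (38.1% in all). The median log2 fold change of the 9 members was 0.03 and the median size of the change 0.12, against -0.01 and 0.31 over all genes tested. The CPM values of the groups did not overlap for 1 of the 9 members, where 50.2% of all genes tested had no overlap. In bulk RNA, fewer cells with a transcript and less of it per cell cannot be told apart.

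**Figure D1:**
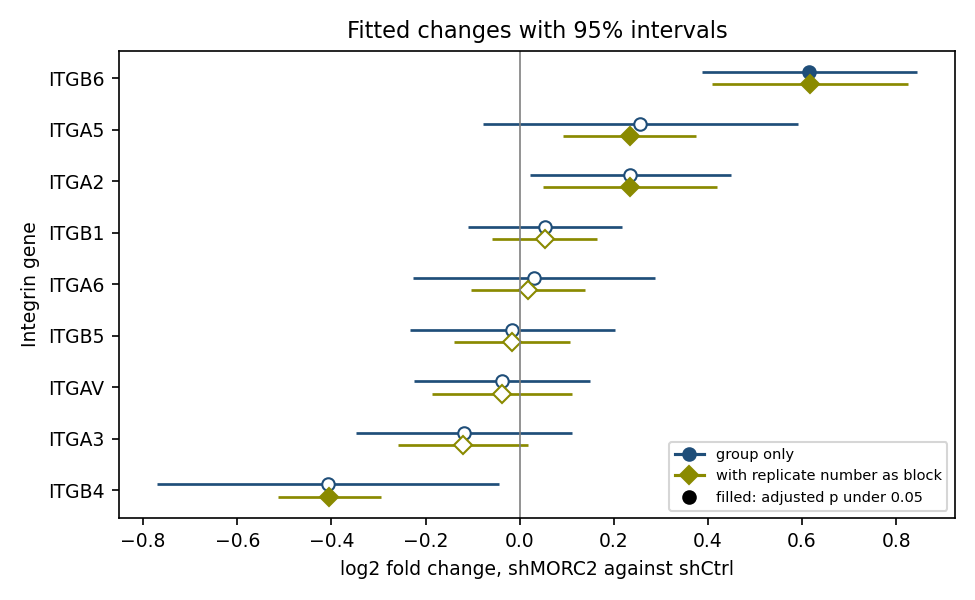
Fitted log2 fold change of shMORC2 against shCtrl (x axis) for the 9 integrin genes tested (y axis), with 95% intervals. Circles show the group-only fit and diamonds the one blocked on replicate number, and filled symbols have an adjusted p under 0.05. ITGB6 lies at 0.62 in both fits, and ITGB4 lies near -0.41 in both with a narrower interval in the blocked fit.

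The RNA of these genes was uneven in level. On the scale of RPKM (counts divided by the length of the exons and by the library total), which allows levels of different genes to be compared, ITGA6 was highest in shCtrl at 101 ± 7.38 RPKM (SD, n = 3). ITGB4 followed at 96.5 ± 20.6 RPKM and ITGB1 at 62.8 ± 1.72 RPKM. These 3 genes held 88.6% of the summed RPKM of the 10 members in shCtrl and 87.2% in shMORC2. The next were ITGB5 at 13.0, ITGA5 at 8.52, ITGA3 at 5.27, ITGAV at 3.52, ITGA2 at 1.93 and ITGB6 at 1.19 RPKM, and ITGB3 was last at 0.0179 RPKM. The order was the same in shMORC2. Neighbours in that order whose libraries overlapped, and so did not differ beyond their spread, were ITGA6 and ITGB4 in shCtrl, and ITGB4 and ITGB1 as well as ITGB5 and ITGA5 in shMORC2.

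**Figure D2:**
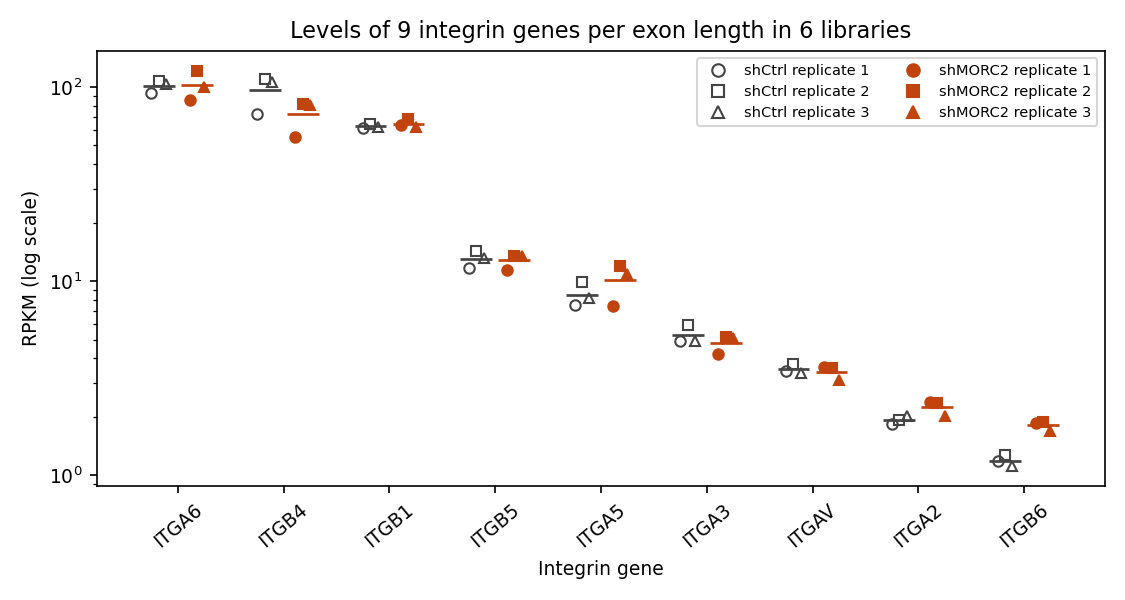
Level in RPKM (y axis, log scale) of 9 integrin genes (x axis) in each of the 6 libraries, with open grey symbols for shCtrl, filled orange symbols for shMORC2, a shape for each replicate number and a line at the mean of each group. ITGB3, at 0 to 4 counts per library, is not drawn. ITGB6 is the one gene whose 3 shMORC2 libraries all lie above all 3 shCtrl libraries.

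Among the chains that bind laminin, ITGA6 (chromosome 2, 172427354 to 172506282, plus strand, GRCh38) stood at 592, 698 and 691 CPM in shCtrl and at 549, 810 and 664 CPM in shMORC2. The highest and the lowest library were both shMORC2, and the groups overlapped. Its log2 fold change was 0.03, with a 95% interval from -0.23 to 0.29 (edgeR adjusted p = 0.858). Exons of ITGA6 share positions with 3 genes on the other strand, of which AC078883.3 had 4021 to 5325 counts, AC093818.1 had 1013 to 1495 and AC078883.4 had 2582 to 4662. AC078883.4 fell by 0.51 on the log2 scale (edgeR adjusted p = 0.00427), and its part in the value of ITGA6 was not tested.

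The 3' end of ITGA6 is spliced in 2 known ways. The A form uses exon 25 of 26, whose coding part ends the reading frame, and the B form skips it and reads on in the last exon, so the cytoplasmic tails differ. GENCODE v44 has 3 coding transcripts of the A form, with 105 coding bases in the last coding exon, and 4 of the B form, with 159. Both coding parts are shown because the deposited splicing table lists this exon. Capitals mark coding bases and lower case the 20 intron bases before them, on the plus strand of chromosome 2 (GRCh38), where the A part lies at chr2:172501772-172501876 and the B part at chr2:172504091-172504249.
ITGA6 A form: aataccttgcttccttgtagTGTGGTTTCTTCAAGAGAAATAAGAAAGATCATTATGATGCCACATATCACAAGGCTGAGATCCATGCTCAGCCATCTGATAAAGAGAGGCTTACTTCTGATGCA
ITGA6 B form: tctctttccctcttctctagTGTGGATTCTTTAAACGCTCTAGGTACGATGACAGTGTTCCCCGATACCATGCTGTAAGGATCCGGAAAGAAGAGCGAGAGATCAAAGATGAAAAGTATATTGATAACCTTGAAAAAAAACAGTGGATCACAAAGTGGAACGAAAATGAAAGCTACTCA
Of the first 18 coding bases, 13 are identical in the A and B parts.

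ITGB4 (chromosome 17, 75721328 to 75757818, plus strand) encodes the beta chain with the long cytoplasmic part that binds plectin. Its level was 480, 741 and 738 CPM in shCtrl and 366, 561 and 550.5 CPM in shMORC2. Replicate 1 was the lowest library of each group, and shCtrl replicate 1 lay among the shMORC2 libraries, so the groups overlapped. The log2 fold change was -0.41 (edgeR adjusted p = 0.0712, SE 0.17, 95% interval -0.77 to -0.04). Within replicate numbers 1, 2 and 3, shMORC2 was lower each time, by log2 differences of -0.39, -0.40 and -0.42. In the fit blocked on replicate number, ITGB4 fell by 0.40 on the log2 scale (edgeR adjusted p = 2.14e-07, SE 0.05). No label states that equal numbers are pairs, and the pairing was taken from these same data. Without shCtrl replicate 1 the value was -0.59 (edgeR adjusted p = 0.00245), and without shMORC2 replicate 1 it was -0.23 (edgeR adjusted p = 0.197). Leaving out another single library gave values from -0.51 to -0.31, none of them called. Without replicate 1 in both groups the value was -0.41 (edgeR adjusted p = 7.86e-06). ITGB4 was also called in group-only edgeR fits with no filter on low counts (adjusted p = 3.62e-06) and on library size without TMM (adjusted p = 0.0486). It was not called in those with upper quartile scaling (adjusted p = 0.0799) or a filter at a mean of 50 counts (adjusted p = 0.0818). Neither DESeq2 (adjusted p = 0.232) nor any of the 3 limma fits (adjusted p from 0.127 to 0.287) called it.

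The ratio of ITGB4 to ITGA6 in RPKM was examined after the values of both genes were seen. It averaged 0.947 in shCtrl, from 0.783 to 1.03, and 0.705 in shMORC2, from 0.645 to 0.801. The ranges overlapped. Within replicate numbers, shMORC2 was lower each time, at 0.645 against 0.783, 0.669 against 1.03 and 0.801 against 1.03.

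ITGA3 (chromosome 17, 50055968 to 50090481, plus strand), which pairs with ITGB1 as a receptor for laminins, stood at 46.9, 58.0 and 49.6 CPM in shCtrl and at 40.3, 51.3 and 50.8 CPM in shMORC2. The groups overlapped over most of their range. The log2 fold change was -0.12, with a 95% interval from -0.35 to 0.11 (edgeR adjusted p = 0.404).

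ITGB1 (chromosome 10, 32900319 to 33005792, minus strand) showed the narrowest spread of the abundant chains, at 360, 387 and 382 CPM in shCtrl and 374, 420 and 379 CPM in shMORC2. The groups overlapped. Its log2 fold change was 0.05, with a 95% interval from -0.11 to 0.22 (edgeR adjusted p = 0.601). The pseudogene ITGB1P1, at 187 to 237 counts, carries a copy of its sequence, and the counting could have split reads between them.

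ITGA2 (chromosome 5, 52989326 to 53094779, plus strand), the collagen receptor chain that pairs with ITGB1, stood at 14.2, 15.1 and 16.4 CPM in shCtrl and at 18.5, 19.0 and 16.2 CPM in shMORC2. Replicates 1 and 2 of shMORC2 were above all of shCtrl, while shMORC2 replicate 3 was just below shCtrl replicate 3. The log2 fold change was 0.24 (edgeR adjusted p = 0.0760, SE 0.10) in the group comparison and 0.23 (edgeR adjusted p = 0.0316, SE 0.09) with the replicate block.

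ITGA5 (chromosome 12, 54395261 to 54419460, minus strand), which makes the main fibronectin receptor with ITGB1, stood at 55.8, 74.3 and 63.4 CPM in shCtrl and at 55.0, 93.0 and 83.0 CPM in shMORC2. Replicates 2 and 3 of shMORC2 were above all of shCtrl, and shMORC2 replicate 1 was the lowest of the 6 libraries. The log2 fold change was 0.26 (edgeR adjusted p = 0.212, SE 0.16). The within-number differences were -0.02, 0.32 and 0.39 on the log2 scale. With the replicate block, a pairing that no label states, ITGA5 rose by 0.23 (edgeR adjusted p = 0.00581, SE 0.07). Without shMORC2 replicate 1 the value was 0.45 (edgeR adjusted p = 0.00293), and without shMORC2 replicate 2 it was 0.10 (edgeR adjusted p = 0.675). Without shCtrl replicate 1 it was 0.16 (edgeR adjusted p = 0.447), and leaving out another single library gave values from 0.20 to 0.37, none of them called. An antisense gene, RP11-753H16.5, at 51 to 109 counts, shares exonic positions with ITGA5.

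**Figure D3:**
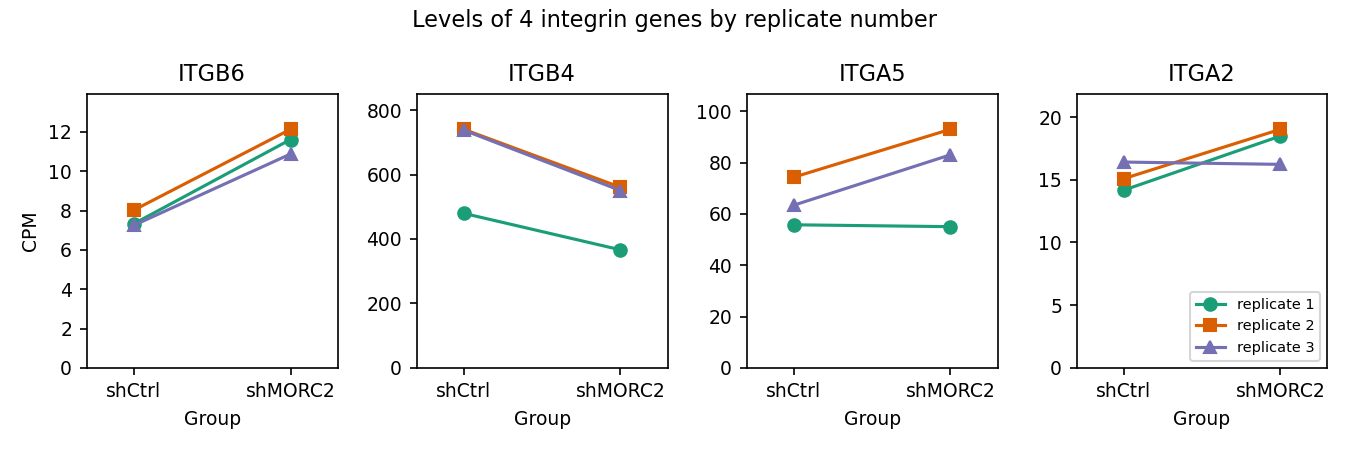
Level in CPM (y axis, from 0) of ITGB6, ITGB4, ITGA5 and ITGA2 in shCtrl and shMORC2 (x axis), with a line joining the libraries of the same replicate number. All lines go up for ITGB6 and all go down for ITGB4, while the line of replicate 1 is nearly flat for ITGA5 and that of replicate 3 is nearly flat for ITGA2.

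The libraries of replicate 1 were low in many members. In shCtrl it was the lowest of the 3 libraries for 8 of the 9 members above the floor, and in shMORC2 for 6 of 9. The same share over all genes tested was 36.9% and 38.9%. Replicate 1 was lowest in both groups for ITGA3, ITGA5, ITGA6, ITGB1, ITGB4 and ITGB5, 6 of 9 members, against 20.9% of all genes tested. With the replicate block, 3 members were called higher, where 24.4% of all genes were, and 1 was called lower, where 24.5% were.

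The other chains were ITGAV and its beta partners. ITGAV (chromosome 2, 186590065 to 186680901, plus strand) stood at 27.7, 30.6 and 28.3 CPM in shCtrl and at 28.9, 29.8 and 25.7 CPM in shMORC2. The groups overlapped, and the log2 fold change was -0.04, with a 95% interval from -0.22 to 0.15 (edgeR adjusted p = 0.768). ITGB5 (chromosome 3, 124761948 to 124901418, minus strand), which makes a vitronectin receptor with ITGAV, stood at 73.2, 91.8 and 86.5 CPM in shCtrl and at 72.2, 88.4 and 88.3 CPM in shMORC2. These values also overlapped, and the log2 fold change was -0.02, with a 95% interval from -0.23 to 0.20 (edgeR adjusted p = 0.918).

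ITGB6 (chromosome 2, 160099666 to 160271888, minus strand) stood at 7.32, 8.02 and 7.25 CPM in shCtrl and at 11.6, 12.1 and 10.9 CPM in shMORC2. Every shMORC2 library was above every shCtrl library. The mean rose from 7.53 ± 0.424 CPM (SD, n = 3) to 11.5 ± 0.632 CPM (SD, n = 3), a log2 fold change of 0.62 (edgeR adjusted p = 0.000545, SE 0.11, 95% interval 0.39 to 0.84). The within-number differences were 0.66, 0.60 and 0.59.

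Relative to ITGAV, ITGB6 was at 0.337 in shCtrl (0.331 to 0.341) and at 0.530 in shMORC2 (0.518 to 0.547), both in RPKM, and the ranges did not overlap. Of the summed RPKM of the beta partners ITGB3, ITGB5, ITGB6 and ITGB8, ITGB6 made up 8.21% in shCtrl (7.65% to 9.01%) and 12.3% in shMORC2 (11.0% to 13.8%). ITGB1, which also pairs with ITGAV, was left out of that sum. These ratios were chosen after the values were seen.

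ITGB3 (chromosome 17, 47253846 to 47311816, plus strand), the beta chain of the vitronectin receptor of endothelial cells and osteoclasts, had 4, 2 and 4 counts in shCtrl and 2, 0 and 2 counts in shMORC2. These counts were at or near the floor, and a difference was not detectable at this depth. Of 5 endothelial markers, TEK, CDH5 and KDR were at or below the floor in every library, and TEK was at 0. The other 2, PECAM1 and VWF, were above it in every library. The summed level of the list was 15.7 to 19.6 CPM in shCtrl and 20.6 to 22.3 CPM in shMORC2, and its part in the values of the members was not tested.

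The stretch before the start of ITGB6 is shown as that of the one member called. It is the 250 bases upstream of the RefSeq start, written on the minus strand (GRCh38, chr2:160200273-160200522). The counted gene reaches to 160271888, so this stretch lies inside its span. GENCODE v44 places the start of the gene at 160200313, within the stretch. Which start the counted transcripts used was not tested, and bases before 160271888 are not shown. Capitals mark the one match to the E-box CACCTG, 70 bases before the start.
ITGB6 promoter: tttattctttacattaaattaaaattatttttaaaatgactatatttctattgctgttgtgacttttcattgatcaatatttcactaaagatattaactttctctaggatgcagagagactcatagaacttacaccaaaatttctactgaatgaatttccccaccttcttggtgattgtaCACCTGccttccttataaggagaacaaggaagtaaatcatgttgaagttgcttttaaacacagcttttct
On either strand, the E-box stood in 20.6% of 35116 RefSeq windows from 250 bases before to 50 after a start, the GC box GGGCGG in 45.0%, the TATA box TATAAA in 11.5% and the AP-1 site TGACTCA in 4.95%. In the ITGB6 stretch the last 3 had no match. The 7 members with a window had 12 windows in all. Of these windows, 8 had a GC box, 3 an E-box, 2 a TATA box and 1 an AP-1 site. By gene, with a match in any window, the counts were 5, 3, 2 and 1 of 7, which the shares per window do not match in kind. A match is a string of letters and not a measured site.

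The deposited splicing table listed 4 events in 3 members, ITGA6, ITGB4 and ITGA5, of 1449 events in 1181 genes, and 0 in the other integrin chains. It compares 3 libraries of a group 1 with 3 of a group 2, and no header says which is shMORC2. Its values are therefore given without a knockdown direction and without a test. The inclusion level is the share of an isoform from junction and exon reads scaled by the length each isoform offers. The table lists only events with low p-values in a comparison of these groups, so a gap between them is how an event came to be listed.

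For the 130-base exon 25 of ITGA6 (chr2:172501772-172501901), the inclusion level was 0.459, 0.370 and 0.394 in group 1 and 0.559, 0.537 and 0.552 in group 2. It rested on 488 to 716 reads per library. Group 1 was below group 2 without overlap, and reads of both the A form and the B form shown above were counted in every library.

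In ITGB4, the table sets exon 18 against exon 19 and exon 19 against exon 20, as pairs of which a transcript uses 1. Exon 19 has 34 bases, at chr17:75739672-75739705 on the plus strand, and is shown because it takes part in both events, with its exonic bases in capitals after 20 bases of intron.
ITGB4 exon 19: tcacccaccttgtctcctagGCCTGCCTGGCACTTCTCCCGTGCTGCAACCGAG
The share of the 107-base exon 18 over exon 19 was 0.419, 0.333 and 0.389 in group 1 and 0.552, 0.547 and 0.547 in group 2, from 145 to 255 reads. The share of exon 19 over the 192-base exon 20 was 0.413, 0.407 and 0.430 in group 1 and 0.557, 0.511 and 0.516 in group 2, from 269 to 561 reads. The groups did not overlap in either event. The canonical GENCODE v44 transcript of ITGB4, with 40 exons, holds all of exons 18, 19 and 20.

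In ITGA5, exon 2 (131 bases) was set against exon 3 (113 bases). The canonical GENCODE v44 transcript of ITGA5, with 30 exons, holds both exons. The share of exon 2 was 0.330, 0.525 and 0.304 in group 1 and 0.482, 0.527 and 0.564 in group 2. It rested on 52 to 94 reads per library, the fewest of the 4 events, and the groups overlapped.

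**Figure D4:**
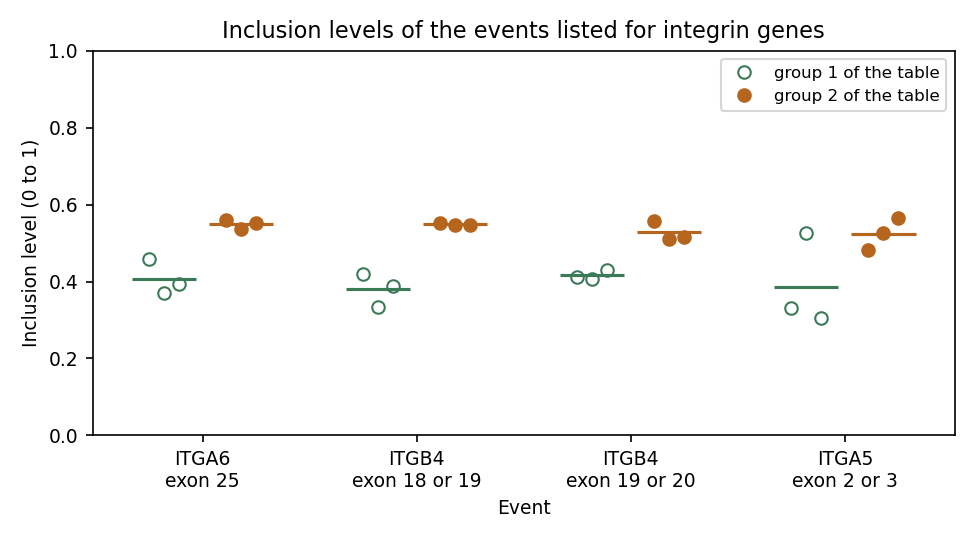
Inclusion level (y axis, 0 to 1) in each library for the 4 events listed in integrin genes (x axis), with open symbols for group 1 and filled symbols for group 2 of the splicing table and a line at each mean. The groups, which the table does not name, are apart in ITGA6 and ITGB4 and overlap in ITGA5.

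The integrin pathway was read from 5 lists with 99 genes, of which 87 were tested. In these lists 25 genes were called higher and 16 lower, which is 47.1% of those tested, where 39.5% of all genes were called. With the replicate block the counts were 35 and 19, where 49.0% of all genes were called. The median log2 fold change of the 87 genes was 0.14.

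Of the 16 integrin chains that are no members, 10 were tested, 3 were called higher and 3 lower (60.0%, against 39.5% of all genes). Their median log2 fold change was 0.15. ITGA1, a collagen receptor chain, had 49, 39 and 52 counts in shCtrl and 285, 214 and 204 counts in shMORC2, with no overlap. Its log2 fold change was 2.31 (edgeR adjusted p = 1.79e-06, SE 0.19). The gene PELO, with 524 to 735 counts and a log2 fold change of -0.20 (adjusted p = 0.238), shares exonic positions with ITGA1 on the same strand. ITGAE, the chain that binds E-cadherin together with ITGB7, rose from 14.0 ± 2.08 to 20.5 ± 0.378 CPM (SD, n = 3), a log2 fold change of 0.55 (edgeR adjusted p = 0.00149). GSG2, with 523 to 767 counts, shares exonic positions with ITGAE on the other strand. It had a log2 fold change of -0.46 (edgeR adjusted p = 0.00228), and its part in the value of ITGAE was not tested. ITGB7 had a log2 fold change of 0.17 (edgeR adjusted p = 0.327, and 0.0356 with the replicate block). With 1 library left out its value ran from 0.06 (without shCtrl replicate 1, adjusted p = 0.748) to 0.33 (without shMORC2 replicate 1, adjusted p = 0.0218), and it was 0.08 without shMORC2 replicate 2 and 0.11 without shMORC2 replicate 3.

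ITGA7, a laminin receptor chain, had a log2 fold change of 0.26 (edgeR adjusted p = 0.0359). It shares exonic positions on the other strand with BLOC1S1, METTL7B and RP11-644F5.10 (2050 to 4014 counts). These genes had log2 fold changes of 0.83, 0.43 and 0.75, and their part in the value of ITGA7 was not tested. The call of ITGA7 was lost without shCtrl replicate 1 (0.17, adjusted p = 0.146), shMORC2 replicate 2 (0.24, 0.113) or shMORC2 replicate 3 (0.24, 0.113). ITGB2, the beta chain of leukocytes, fell by 1.04 on the log2 scale (edgeR adjusted p = 0.000790), from 7.22 to 3.51 CPM. Its antisense gene ITGB2-AS1, at 58 to 109 counts, shares exonic positions with it and had a log2 fold change of -0.58. ITGB8, a further partner of ITGAV that binds latent TGF-beta, fell by 0.62 (edgeR adjusted p = 0.0102), from 4.50 to 2.92 CPM, with an adjusted p of 0.05004 without shMORC2 replicate 2. ITGA2B, the platelet chain that pairs with ITGB3, fell by 0.56 (edgeR adjusted p = 0.0350), from 2.74 to 1.86 CPM. Its call was lost without shCtrl replicate 2 or 3 or without shMORC2 replicate 1 or 3, with adjusted p between 0.0537 and 0.118 in edgeR. It was also lost without replicate 1 in both groups (-0.42, edgeR adjusted p = 0.119). ITGA7, ITGB8 and ITGA2B were not called in limma on log2(RPKM + 1) over all genes (adjusted p = 0.0908, 0.116 and 0.129). The summed level of 6 leukocyte markers, to which ITGAX of the same list belongs, was 8.69 to 9.58 CPM in shCtrl and 9.49 to 10.8 CPM in shMORC2. Of these 6 markers, 3 were above the floor in every library, and PTPRC was not.

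Among the ligands, 23 of 26 were tested, 8 were called higher and 3 lower (47.8%, against 39.5% of all genes). Their median log2 fold change was 0.16. THBS1, a matrix glycoprotein that several integrins bind, rose from 43.2 ± 11.3 to 126 ± 22.9 CPM (SD, n = 3), a log2 fold change of 1.54 (edgeR adjusted p = 1.10e-05). FN1, the fibronectin gene, rose from 99.0 ± 2.92 to 185 ± 14.4 CPM, a log2 fold change of 0.90 (edgeR adjusted p = 2.53e-06). LAMA5, the alpha chain of laminins of the gut basement membrane, and COL4A2, a chain of its collagen, fell by 0.41 and 0.37 (edgeR adjusted p = 0.00117 and 0.00548). The call of COL4A2 was lost in limma on log2(RPKM + 1) over all genes (-0.24, adjusted p = 0.0618). The summed level of 7 fibroblast markers was 11.7 to 12.6 CPM in shCtrl and 15.7 to 17.7 CPM in shMORC2, with 3 of the 7 above the floor in every library and FAP at 0, and the part of such transcripts in the ligand values was not tested.

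Of the activators and adaptors, 26 of 27 were tested, 5 were called higher and 2 lower (26.9%, against 39.5% of all genes). Their median was 0.13. TNS1 and TNS4, tensins that bind the tails of beta chains, rose by 1.45 and 0.69 on the log2 scale (edgeR adjusted p = 0.000312 and 0.000687). The call of TNS1 was lost in limma on log2(RPKM + 1) over all genes (0.30, adjusted p = 0.0600). TNS4 reached 334 CPM from 207 CPM, while TNS1 reached 6.91 CPM from 2.52 CPM. FERMT1, the kindlin of epithelial cells, which helps to activate integrins, fell by 0.45 (edgeR adjusted p = 0.00203), and VCL, which encodes vinculin, by 0.37 (edgeR adjusted p = 0.00686).

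Of the signalling genes downstream of adhesion, 18 of 20 were tested. Of these 18, 4 were called higher, where 19.9% of all genes were, and 5 were called lower, where 19.6% were. Their median log2 fold change was 0.03. The GTPase CDC42 fell by 0.86 (edgeR adjusted p = 6.32e-06), from 94.2 to 51.9 CPM, and the adaptor CRKL by 0.74 (edgeR adjusted p = 2.75e-05). CDC42 has pseudogene copies that could share its reads. CDC42P2 (17 to 83 counts) and CDC42P6 (52 to 91 counts) had log2 fold changes of -1.43 and -0.61 (edgeR adjusted p = 0.00228 and 0.0311). The other copies had at most 4 counts in a library, and the part of any copy in the value of CDC42 was not tested. The scaffold NEDD9 rose by 0.38 (edgeR adjusted p = 0.00483) and the GTPase RHOA by 0.33 (edgeR adjusted p = 0.00309). TCTA, with 121 to 314 counts, shares exonic positions with RHOA on the other strand. It had a log2 fold change of 1.09 (edgeR adjusted p = 5.44e-05), and its part in the value of RHOA was not tested.

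In the list of hemidesmosome proteins and tetraspanins, membrane proteins that associate with integrins, all 10 genes were tested. Of these 10, 5 were called higher and 3 lower (80.0%, against 39.5% of all genes), with a median of 0.28. CD9 rose from 276 to 372 CPM, by 0.43 on the log2 scale (edgeR adjusted p = 0.00278), and CD81 by 0.42 (edgeR adjusted p = 0.00207). TSPAN4 fell by 0.71 (edgeR adjusted p = 0.000675). PLEC, the plectin that ITGB4 binds, fell by 0.38 (edgeR adjusted p = 0.0366) with overlapping groups, from 4063 ± 691 to 3130 ± 488 CPM (SD, n = 3). Without shCtrl replicate 2 or 3 or shMORC2 replicate 1 or 3 its value ran from -0.44 to -0.25 and was not called (adjusted p from 0.0574 to 0.135). It was not called in any of the 3 limma fits either (adjusted p from 0.0579 to 0.167), while with the replicate block its adjusted p was 6.22e-07.

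**Figure D5:**
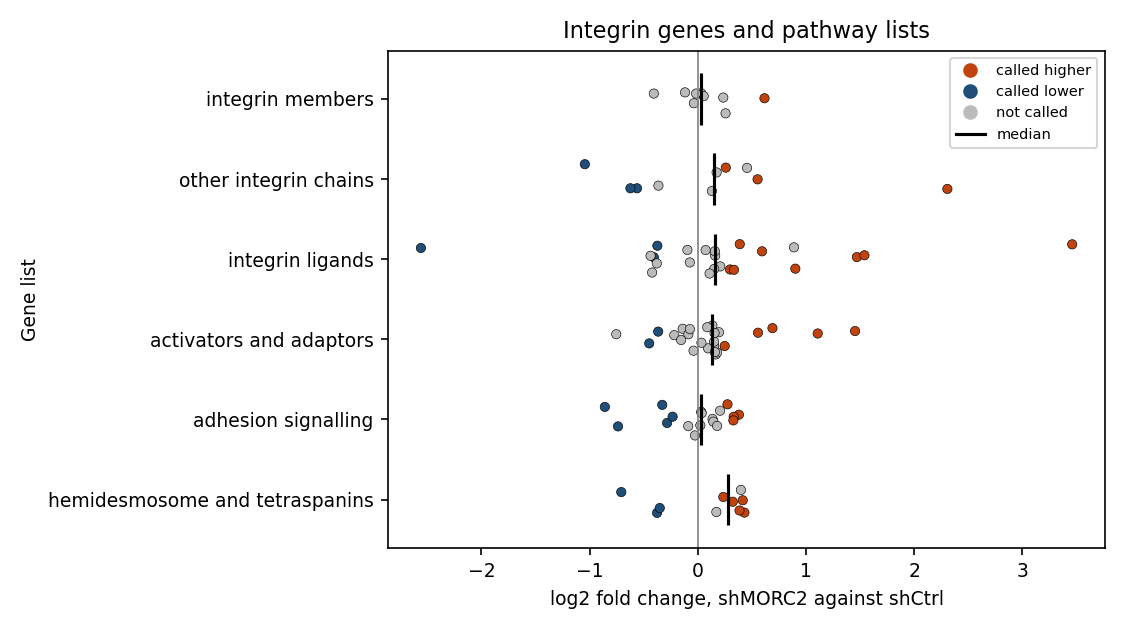
Fitted log2 fold change of shMORC2 against shCtrl (x axis) for each tested gene of the integrin members and of the 5 pathway lists (y axis). Red points were called higher, blue points lower and grey points neither, and black lines are medians, which lie between 0.03 and 0.28. Integrin members span -0.41 to 0.62, and the outermost ligands are SPP1 at 3.46 and VTN at -2.56, both with few counts.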

How the data were processed

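The authors deposited raw counts per gene, RPKM computed from the same counts, and a splicing table with reads and inclusion levels (fraction) per library. Its columns of group differences, p-values and adjusted p-values were not used. The submitters' notes name Trimmomatic 0.36, STAR 2.5.3a, featureCounts of Subread 1.5.1, edgeR 3.12.1 and GRCh38. The study's methods name mRNA sequencing with molecular identifiers. Whether reads were collapsed by them, and the strand setting of the counting, are not given in the sources used here, so reads of overlapping genes on opposite strands may not be told apart.

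The members and lists were chosen with earlier results of these data known. Counts were tested with edgeR 4.0.16 (R 4.3.3): filterByExpr, TMM, a quasi-likelihood fit of the group, and Benjamini-Hochberg adjustment over 21005 genes. The standard error was taken as the log2 fold change over the root of F. The group-only edgeR fit, DESeq2 and limma on log2(RPKM + 1) were run on simulated counts with no replicate effect. That run does not bear on the blocked fit. Named were all members, MORC2, other integrin chains that were called or had a mean RPKM of at least 1, and for each further list the 2 highest and 2 lowest changes among called genes with at least 100 mean counts. SPP1, VTN, AC078883.4, other overlapping genes and pseudogene copies were named after their values were seen.

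Deviations from the group means correlated at 0.215, 0.111 and 0.102 for replicates 1, 2 and 3. Between libraries of unlike number the correlations ran from -0.156 to 0.0527. The numbers were taken to pair the libraries, on these values alone. Alternatives were DESeq2 1.42.0, limma 3.58.1 on log2(RPKM + 1) and log2(RPKM + 0.1), library size without TMM, upper quartile scaling, other filters, the replicate block and leaving out libraries. The floor of 3 counts covers counting error only. Motif counts in the cytoplasmic tails were planned and not run.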

Additional observations from a re-analysis of the deposited data

How the results depend on the processing

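Under each of 16 alternatives ITGB6 was called higher, at a log2 value between 0.36 and 0.66. The count of members called higher, 1 as reported, was 2 with no filter on low counts (where 11.7% of all genes were called higher), 3 with the replicate block (24.4%), 2 without replicate 1 in both groups, an alternative added after the data were seen (22.0%), and 0 at a log2 change of at least 1 (4.92%), and 1 to 2 with 1 library left out (15.1% to 19.8%). The count of members called lower, 0 as reported, was 1 for library size without TMM (19.6%), with no filter (11.8%), with the replicate block (24.5%) and without replicate 1 in both groups (21.8%), and 0 to 1 with 1 library left out (13.9% to 19.4%). The added calls were ITGA5 and, in the block alone, ITGA2 among the higher, and ITGB4 as the lower. Pathway genes called higher went from 25 to 6 at a log2 change of at least 1 (4.92% of all genes). Those called lower went from 16 to 2 there (2.82%) and to 10 in each of the 3 limma fits. The limma shares of all genes called lower were 21.5%, 21.8% and, over all genes with any value, 7.07%. The first 2 of these fits tested 14816 genes and left out ITGB2, ITGB8 and ITGA2B, so part of that fall was not a lost call. With 1 library left out, pathway genes called higher ran from 17 to 29 (15.1% to 19.8%) and those called lower from 12 to 15 (13.9% to 19.4%). Directions turned for values near 0. With 1 library left out, ITGA6 ran from -0.12 to 0.16, ITGAV from -0.0782 to 0.0301 and ITGB5 from -0.106 to 0.0777, and with upper quartile scaling ITGB5 was at 0.0053. The cause was not tested. With 3 libraries a group, intervals of the members not called reached up to 0.77 in size. Among the members, ITGB3 alone had too few counts to be tested, and how far depth limits the others was not tested.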
